A study of Mus musculus with 6 samples.

Results

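The genes described here are 9 cation channel genes of the transient receptor potential (TRP) superfamily, Trpc1, Trpc4, Trpc5, Trpc6 and Trpc7 of the canonical (TRPC) family and Trpm2, Trpm3, Trpm4 and Trpm7 of the melastatin (TRPM) family. They were chosen by name as candidates for the burst current of preBötzinger complex (preBötC) neurons, out of 49568 gene names, and all 9 were found. The preBötC is the brainstem site that generates inspiratory rhythm. Neurons were taken from newborn mice at postnatal day 2 that carried Dbx1CreERT2 together with Rosa26tdTomato, an inducible Cre in the Dbx1 gene and a red fluorescent reporter that Cre switches on. Both groups came from mice of this genotype whose mothers had been given tamoxifen during pregnancy. The 3 Dbx1 samples held tdTomato-positive neurons, and the 3 non-Dbx1 samples held neuronal somata without tdTomato, so the second group is defined by the lack of a label that depends on tamoxifen. Each sample pooled 15 neurons drawn into glass pipettes from a different animal.

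TRP channels are tetramers that pass cations through the cell membrane. TRPC channels open downstream of receptors that couple to Gq proteins and phospholipase C, and TRPC4 and TRPC5 also respond to Gi proteins. TRPM4 opens on intracellular Ca2+ and passes monovalent cations, which made it a candidate for the Ca2+-activated nonspecific cation current that may underlie inspiratory bursts. TRPM2 opens on ADP-ribose, TRPM3 on pregnenolone sulphate, and TRPM7 is a Mg2+-permeable channel fused to a protein kinase. A feature that both families share is the TRP box, a short stretch just after the last membrane helix. Its coding sequence is shown for 8 of the members, since both families carry it and near-identical stretches could split reads between members. In each line the 18 bases of the TRP box are in capitals, with 6 bases on either side, read 5′ to 3′ on the coding strand of the GENCODE vM21 transcripts (GRCm38, the same build as the authors' mm10).

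Trpc1: gataaaGAATGGAAGTTTGCTCGAgcaaag
Trpc4: gatataGAATGGAAATTTGCTCGAacaaag
Trpc5: gatattGAGTGGAAGTTTGCGAGAacaaag
Trpc6: gacgtgGAGTGGAAGTTTGCAAGGgccaaa
Trpm2: gaccagATCTGGAAATTCCAGCGCcacgac
Trpm3: aaccaaGTATGGAAATTTCAGAGGtaccag
Trpm4: gacctcTACTGGAAGGCACAGCGCtacagc
Trpm7: aatattGTATGGAAGTATCAGCGGtatcat

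The window shown for Trpc4 lies in exon 8 of its transcript, at chr3:54302109-54302138 on the plus strand. Its TRP box shared 17 of 18 bases with that of Trpc1, 14 with Trpc5 and 13 with Trpc6. Against the TRPM members it shared 8 to 12 bases. The window of Trpm4 lies in exon 21, at chr7:45305434-45305463 on the minus strand, and its TRP box shared 12 of 18 bases with Trpm2, 11 with Trpm7 and 9 with Trpm3. Of all stretches of 35 bases in the annotated transcripts, none in Trpc4 also occurred in another gene, and in the other members between 0.201% (Trpm7) and 4.78% (Trpc6) did. Trpc5, Trpc7 and Trpm3 were the only members that shared such a stretch with another member. Reads were counted without strand. Trpm3 shares 1.13% of its exon bases with the antisense gene Gm27151 and 1.44% with C330002G04Rik, so reads there cannot be told apart, while Trpc5os, which lies opposite Trpc5, has no exon base in common with it.

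Values are RPKM, reads per kilobase of exon scaled to all reads on genes in the sample. The steps between values gave 6464675 to 9432958 reads on genes in a sample. Neuronal markers summed to 1314 to 1904 RPKM in the Dbx1 samples and 1202 to 1710 in the non-Dbx1 samples, and all 8 genes had reads. Dbx1 itself, a transcription factor of embryonic progenitors, had no reads in any sample, which allows up to 0.222 RPKM in a single sample, and no gene name in the files contained tdTomato, so the label could not be checked by either. Non-Dbx1 replicate 1 stood apart by its markers of other cells. Oligodendrocyte lineage markers summed to 566 RPKM in it and to at most 73.2 in any Dbx1 sample, with Mbp at 155, and Ttr, a choroid plexus gene, was at 58.6. Of the other choroid plexus genes in that sample, Kcnj13 was at 5.05, Kl at 1.34 and Clic6 at 0.154. Folr1, Otx2 and Slc4a5 had no reads in it. Choroid plexus markers summed to 0.745 to 65.2 RPKM in non-Dbx1 and 0 to 2.63 in Dbx1 samples, ependymal markers to at most 0.705, and astrocyte markers to 257 to 282 and 238 to 265, mostly from Aldoc. Cldn5, an endothelial gene, was at 63.7 in non-Dbx1 replicate 2, whereas the other vascular genes there were at most 1.60 (Flt1). In pools of picked neurons such as these, fewer cells of a type and less RNA per cell cannot be told apart. A marker level also does not show that whole cells of that type were in the sample.

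Reads were found for all 9 members, and 8 of them had reads in at least 5 of the 6 samples. Trpc4 was the only member whose samples did not overlap between the groups, with 5.20 ± 4.42 RPKM in Dbx1 and 0.473 ± 0.293 in non-Dbx1 neurons (SD, n = 3), an 11.0-fold ratio of means. Counting either direction, the groups did not overlap in 10.6% of all genes tested. No member passed a false discovery rate (FDR) of 0.1 in limma, and the lowest adjusted p was 0.912 for Trpc4. The study, which tested counts, reported Trpc4 as differentially expressed and higher in Dbx1 neurons. Why its result differs was not tested. The study also held it unlikely that TRPC4 carries the Ca2+-activated nonspecific cation current in the preBötC. The other 7 members that were tested, Trpc1, Trpc5, Trpc7, Trpm2, Trpm3, Trpm4 and Trpm7, overlapped between the groups, and Trpc6 had too few reads to be tested. The test compared log2(RPKM + 1) over 17614 genes, and L2FC below is the mean of the Dbx1 samples minus that of the non-Dbx1 samples on this scale, which understates the change of low genes.

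**Figure D1:**
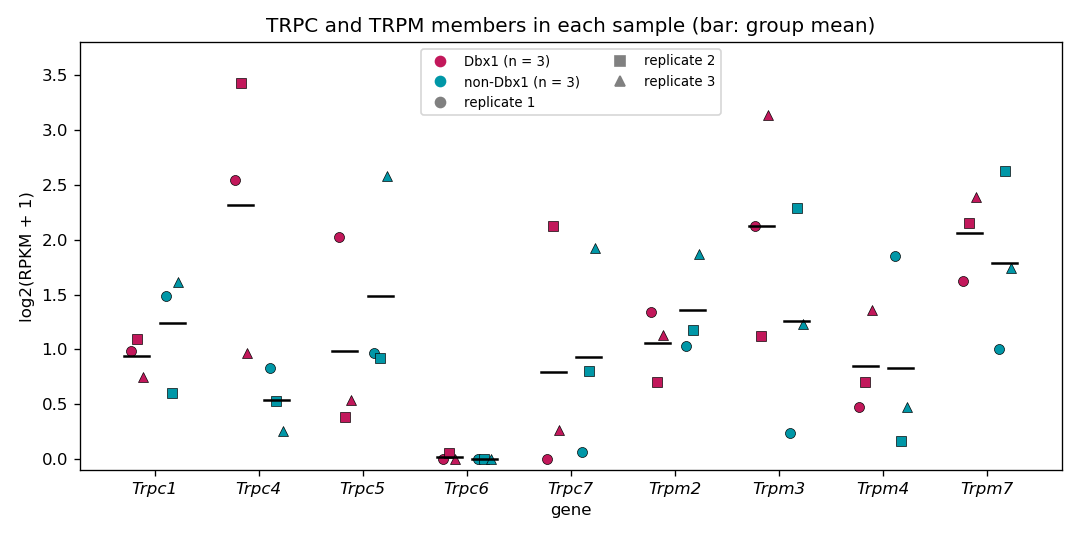
Level of each member as log2(RPKM + 1) in each of the 6 samples, by gene, with colour for the group, marker shape for the replicate and a bar for the group mean on this scale (n = 3). Trpc4 is the only gene whose 3 Dbx1 points all lie above its 3 non-Dbx1 points, and Trpc6 lies at or near 0 in all 6 samples.

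Trpc4 (ENSMUSG00000027748, chr3:54156035-54318471, plus strand) measured 4.85, 9.78 and 0.960 RPKM in Dbx1 replicates 1 to 3, and in non-Dbx1 replicates 1 to 3 it measured 0.781, 0.442 and 0.197. These values rest on 519, 992 and 90 reads against 68, 51 and 25 reads. Dbx1 replicates 1 and 2 were high, whereas Dbx1 replicate 3 was only 1.23 times the highest non-Dbx1 sample. The L2FC was 1.78 (SE 0.708, 95% interval 0.16 to 3.39), with an unadjusted p under 0.05 and an adjusted p of 0.912 in limma. The exact two-sided permutation test of 3 samples against 3 gave p = 0.10, the smallest it allows. Among all genes tested, 5.35% had every Dbx1 sample above every non-Dbx1 sample, and 2.73% had p under 0.05 with the Dbx1 group higher (2.48% with it lower), and 1 of 8 members in each case is too few to set apart from these shares.

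Dbx1 replicate 2 held 57.5% of the Trpc4 RPKM summed over the samples. Without it the group means were 2.90 and 0.473 RPKM, a 6.13-fold ratio, with no overlap, and the L2FC was 1.22. With 1 sample left out at a time, p was not under 0.05 in 4 of the 6 fits, those without Dbx1 replicate 1 or 2 or without non-Dbx1 replicate 2 or 3. A test of the recovered reads with voom gave Trpc4 an L2FC of 3.26 and an adjusted p of 0.876. Summed markers of 4 other cell classes were higher in each non-Dbx1 sample than in any Dbx1 sample, the opposite order to Trpc4. These were the oligodendrocyte lineage (73.4 to 566 RPKM in non-Dbx1, 32.3 to 73.2 in Dbx1), erythroid cells (733 to 14058 and 90.3 to 507), microglia (12.8 to 18.5 and 0.202 to 11.6) and vascular cells (3.08 to 65.5 and 0.706 to 1.36). The number of genes with reads was 8 of 8, 5 of 5, 6 of 8 (Tmem119 and Itgam had none) and 7 of 8. The genes of a list did not all follow its sum. Of the erythroid genes tested 5 had a negative and 0 a positive L2FC, of the oligodendrocyte genes 7 and 1, of the vascular genes 4 and 2 (Pecam1 and Vtn), and of the microglia genes 3 and 2, with a microglia median L2FC of -0.01. The microglia sum in non-Dbx1 came mostly from C1qa and Tyrobp, whereas the mean RPKM of Cx3cr1, P2ry12 and Aif1 was higher in Dbx1. The highest vascular sum, in non-Dbx1 replicate 2, came mostly from Cldn5 (63.7 RPKM). The highest oligodendrocyte sum in Dbx1, in replicate 3, came mostly from Olig1 (63.9 RPKM). That sum (73.2) was nearly equal to the lowest in non-Dbx1 (73.4). Summed astrocyte markers overlapped between the groups, with 2 positive and 6 negative L2FC. Of these, Gfap was higher in each Dbx1 sample (0.271 to 3.96 RPKM) than in any non-Dbx1 sample (0 to 0.126), the order of Trpc4. Slc1a3 had the opposite order. The part of RNA from these cell classes in the Trpc4 difference was not tested. Without non-Dbx1 replicate 1, in which the oligodendrocyte and erythroid sums were highest, the Trpc4 L2FC was 1.92.

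Trpc5 (chrX:144381671-144688180, minus strand), which forms channels with Trpc4 and Trpc1 products, had the largest L2FC in the other direction. Its RPKM was 3.06, 0.306 and 0.456 in Dbx1 against 0.958, 0.893 and 4.995 in non-Dbx1 samples. The highest sample of each group set its mean, since the other 4 samples lay between 0.306 and 0.958. The L2FC was -0.51 (SE 0.694, adjusted p = 0.962 in limma), and without non-Dbx1 replicate 3 it was 0.04. Trpc4 and Trpc5 were not high in the same samples throughout, since Dbx1 replicate 2 had the highest Trpc4 and the lowest Trpc5, and non-Dbx1 replicate 3 the lowest Trpc4 and the highest Trpc5. Dbx1 replicate 1 had several RPKM of each.

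Trpc1 (chr9:95705082-95750375, minus strand) encodes a subunit that mostly joins other TRPC subunits. It measured 0.978, 1.14 and 0.678 RPKM in Dbx1 against 1.81, 0.522 and 2.07 in non-Dbx1 samples. It was the most even of the members, with the highest sample 3.96 times the lowest, and its groups overlapped (L2FC -0.29, SE 0.482, adjusted p = 0.968 in limma).

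Trpc7 (chr13:56773113-56895993, minus strand) and Trpc6 (chr9:8544142-8680741, plus strand) belong to the diacylglycerol-gated branch of the family. Trpc7 measured 0, 3.38 and 0.200 RPKM in Dbx1 against 0.0430, 0.747 and 2.80 in non-Dbx1 samples, from 0, 183 and 10 and from 2, 46 and 190 reads. It was thus strong in 1 sample of each group and at or under the floor of 3 reads in another, and the L2FC was -0.13 (SE 0.691, adjusted p = 0.990 in limma), with the sign changing when any of 3 samples was left out. Trpc6 had 2 reads in Dbx1 replicate 2 and none in the other samples. Here 3 reads correspond to 0.0503 to 0.0734 RPKM depending on the sample, so a sample without reads still allows a level up to about this, from counting error only.

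Among the TRPM members, Trpm4 (ENSMUSG00000038260, chr7:45302632-45333780, minus strand) measured 0.394, 0.628 and 1.56 RPKM in Dbx1 against 2.60, 0.120 and 0.386 in non-Dbx1 samples. These are 55, 83 and 191 reads and 295, 18 and 64 reads. Non-Dbx1 replicate 1 was the highest. Its summed oligodendrocyte, choroid plexus (mostly Ttr) and erythroid markers were also the highest, and the part of RNA from those cell types in the Trpm4 value was not tested. The group means were 0.862 ± 0.619 and 1.04 ± 1.36 (SD, n = 3), and the L2FC was 0.02 (SE 0.528, 95% interval -1.19 to 1.23, adjusted p = 0.999 in limma). Without that sample the means were 0.862 and 0.253 RPKM, a 3.40-fold ratio, and the groups no longer overlapped, although 0.394 and 0.386 are nearly equal. The L2FC was then 0.53, and no fit that left a sample out gave Trpm4 a p under 0.21.

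Trpm3 (chr19:22139046-22995410, plus strand) had the widest range of the TRPM members, at 3.37, 1.17 and 7.80 RPKM in Dbx1 against 0.182, 3.90 and 1.35 in non-Dbx1 samples. The highest was 42.8 times the lowest. Its means were 4.12 ± 3.38 and 1.81 ± 1.90 RPKM (SD, n = 3), with an L2FC of 0.87 (SE 0.766, adjusted p = 0.951 in limma). The lowest value was in non-Dbx1 replicate 1, and without this sample the L2FC was 0.36. The miRNA gene Mir204, which lies in an intron of Trpm3 on the same strand, had no reads in any sample.

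Trpm7 (chr2:126791565-126876230, minus strand) was the most evenly high TRPM member. It measured 2.08, 3.45 and 4.26 RPKM in Dbx1 against 1.002, 5.19 and 2.35 in non-Dbx1 samples (L2FC 0.27, SE 0.616, adjusted p = 0.979 in limma). It too was lowest in non-Dbx1 replicate 1, and without that sample the L2FC was -0.13. Trpm2 (chr10:77907722-77970563, minus strand) measured 1.53, 0.632 and 1.19 in Dbx1 against 1.04, 1.27 and 2.66 in non-Dbx1 samples (L2FC -0.30, SE 0.504, adjusted p = 0.969 in limma). In both genes every sample had over 100 reads, which after amplification need not be as many molecules.

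**Figure D2:**
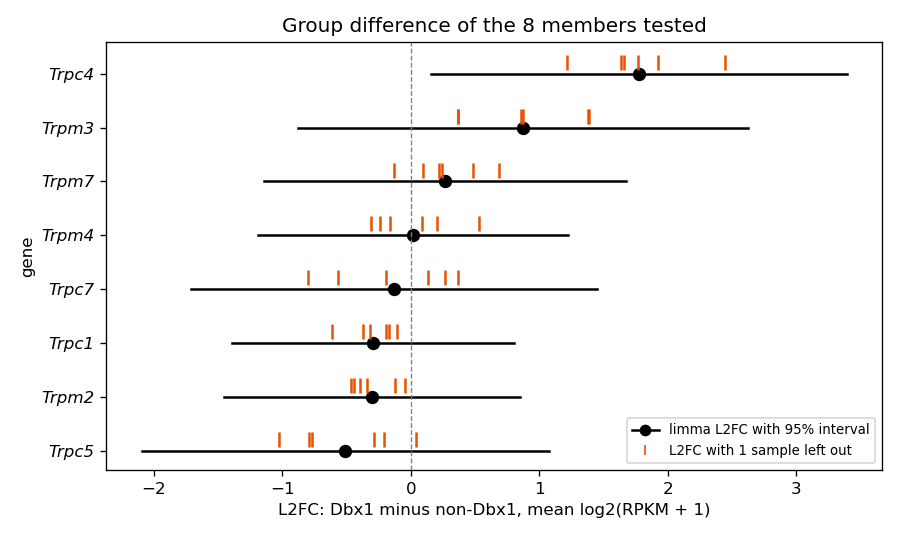
L2FC (Dbx1 minus non-Dbx1, on the log2(RPKM + 1) scale) of the 8 members tested with its 95% interval from limma as black points and lines, and the L2FC with 1 sample left out as orange ticks. The interval of Trpc4 (0.16 to 3.39) lies above 0 and those of the other 7 genes include 0, before adjustment over all genes.

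Of the 8 members tested, 4 had a positive and 4 a negative L2FC, with a median of -0.06 against 0.01 over all genes tested. The median size of the L2FC was 0.30 for the members and 0.33 for all genes tested. At FDR under 0.1, limma called 0 members in either direction and 1 of the 17614 genes (0.00568%), lower in Dbx1. At unadjusted p under 0.05 it called 1 member (Trpc4) and 5.2% of all genes, while voom on the recovered reads called 0 members at this p and 5.26% of the genes it tested. With 15 neurons a sample, an interval such as that of Trpm4 leaves differences of over 1 on the log2 scale possible in either direction, so these tests do not show that the members were equal between the groups.

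Summed over the 9 members, the level was 16.3, 20.5 and 17.1 RPKM in Dbx1 against 8.41, 13.1 and 16.8 in non-Dbx1 samples. Among the Dbx1 samples the SD of this sum was 2.26 RPKM, against 6.18 for the TRPC and 4.78 for the TRPM members. Among the non-Dbx1 samples it was 4.21, above the 4.05 and 2.88 of the same parts. TRPC members summed to 8.89, 14.6 and 2.29 RPKM and to 3.59, 2.60 and 10.1, whereas TRPM members summed to 7.38, 5.89 and 14.8 and to 4.83, 10.5 and 6.75. The sample lowest for the TRPC members, Dbx1 replicate 3, was thus the highest for the TRPM members. The channel with the highest RPKM was Trpc4 in Dbx1 replicates 1 and 2, Trpm3 in Dbx1 replicate 3, and Trpm4, Trpm7 and Trpc5 in non-Dbx1 replicates 1, 2 and 3. It made up 29.7% to 47.6% of the member RPKM of its sample.

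**Figure D3:**
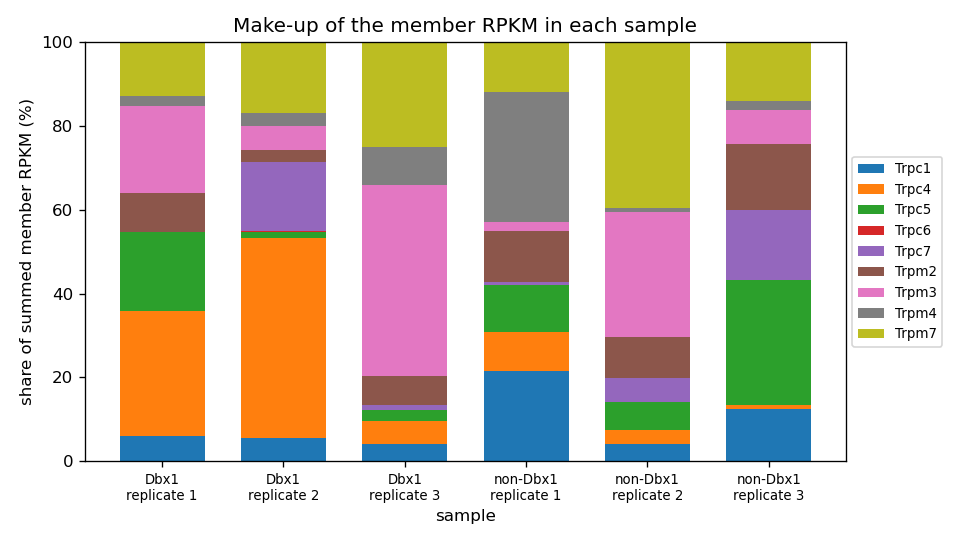
Share of each member in the summed RPKM of the 9 members, in percent, as stacked bars for each of the 6 samples. Trpc4 takes 29.8%, 47.6% and 5.61% of the 3 Dbx1 bars but 9.28%, 3.38% and 1.17% of the 3 non-Dbx1 bars, and 5 different genes lead in the 6 samples.

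The order of the mean RPKM over the 6 samples was Trpm7 (3.06 ± 1.54), Trpm3 (2.96 ± 2.76), Trpc4 (2.83 ± 3.81), Trpc5 (1.78 ± 1.86), Trpm2 (1.39 ± 0.692), Trpc1 (1.20 ± 0.618), Trpc7 (1.19 ± 1.50), Trpm4 (0.948 ± 0.950) and Trpc6 (0.00700 ± 0.0171) (SD, n = 6). Of these, 7 lay above 1.09, the median of the mean RPKM over the 27067 genes with reads. Neighbours were compared by an exact paired permutation test adjusted over the 8 pairs. Trpm4 over Trpc6 had an exact p = 0.031, the smallest that 6 samples allow, which alone among 8 pairs cannot be adjusted below 0.25, although Trpm4 was higher in 6 of 6 samples. In the other 7 pairs the gene with the higher mean led in 2 to 4 of the 6 samples, and their differences did not exceed their spread. Of all 36 pairs of members, 7 kept 1 order in all 6 samples, and each of those 7 had Trpc6 as the lower gene. In the Dbx1 samples alone Trpc4 came first (5.20), before Trpm3 (4.12) and Trpm7 (3.27). In the non-Dbx1 samples alone Trpm7 came first (2.85), and Trpc4 (0.473) ranked above Trpc6 only.

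For the members other than Trpm3, RPKM is lower than it would be per merged exon length, because the lengths used count the bases of overlapping annotated exons more than once. For Trpc4 the length was 13471 bases against 8032 bases when each base is counted once, a factor of 1.68. On the merged length the means were 5.38 RPKM for Trpm7 and 4.75 for Trpc4, and Trpm3 would come to 3.71 or 4.94 if its full length were 3 or 4 times the recovered one, which is an assumption. The place of Trpm3 on this scale is therefore not settled, and Trpc7 (2.22) ranked above Trpc1 (1.81). The ratio of a gene between samples does not depend on its length, whereas an L2FC does so through the 1 added to RPKM.

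**Figure D4:**
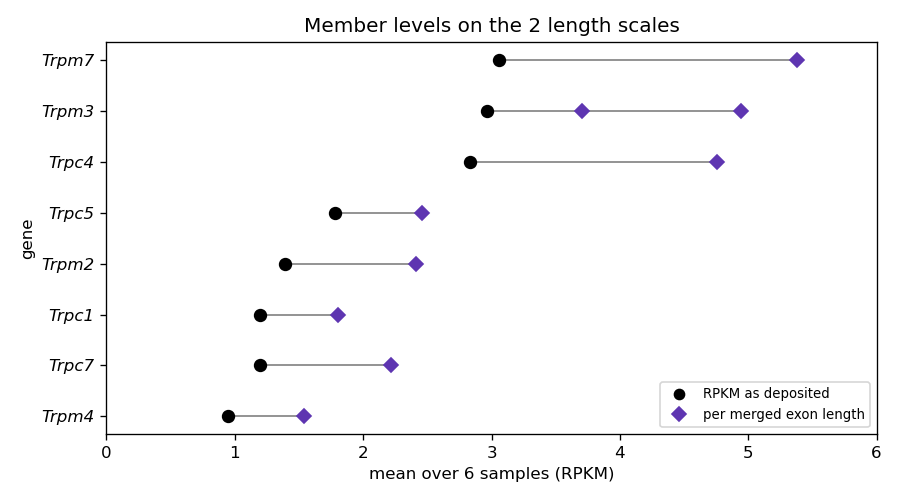
Mean RPKM over the 6 samples as deposited (black circles) and per merged exon length (purple diamonds) for the 8 members with reads in at least 5 samples, with 2 diamonds for Trpm3, whose full length was assumed to be 3 or 4 times the recovered one. Each of the other 7 genes moves up, from 3.06 to 5.38 for Trpm7 and from 2.83 to 4.75 for Trpc4, and Trpc7 passes Trpc1.

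Values of 5 other genes of the TRPC and TRPM families set these levels in context. Trpc2, a pseudogene in humans but a vomeronasal channel in mice, had no reads, and Trpm1, a channel of retinal bipolar cells, had at most 4 reads in a sample. Trpm5, the channel closest to Trpm4 in function, had 3 reads in Dbx1 replicate 1, 1 read in non-Dbx1 replicate 2 and none elsewhere. Trpm6, the kinase channel most like Trpm7, measured 0.232, 0 and 0.640 RPKM in Dbx1 against 0.0238, 0 and 0 in non-Dbx1 samples (L2FC 0.33, SE 0.212, adjusted p = 0.936 in limma). Trpm8, the cold receptor, measured 0, 0.537 and 0.719 and 0.0893, 0.0450 and 0.775 (L2FC 0.13, SE 0.317, adjusted p = 0.980 in limma).

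Of the 13 genes of other TRP families, 7 could be tested. None had an FDR under 0.1 in limma and none a p under 0.05. The highest were Mcoln1, a lysosomal channel, at 8.77 RPKM and Trpv2 at 8.11.

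Genes of the routes that gate these channels were read as lists. In the Gq and phospholipase C route, 18 of 20 genes were tested, and limma called 0 at FDR under 0.1, with 1 higher and 1 lower in Dbx1 at unadjusted p under 0.05. Over all genes tested, 2.73% were higher and 2.48% lower in Dbx1 at this p. The gene with the higher level was Plcd4, a phospholipase C, at 0.417, 0.678 and 3.13 RPKM in Dbx1 against 0, 0.0209 and 0.00950 in non-Dbx1 (L2FC 1.08, adjusted p = 0.912 in limma). The gene with the lower level was Grm5, a Gq-coupled metabotropic glutamate receptor, at 5.33, 2.94 and 6.37 against 12.9, 10.02 and 11.9 (L2FC -1.14, adjusted p = 0.912 in limma). The highest mean RPKM belonged to Gna11, a Gq family subunit, at 39.95 and Prkcb, a protein kinase C, at 30.4. The median L2FC of the list was 0.23 against 0.01 over all genes tested.

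All 5 Gi and Go alpha subunits were tested, and none had an unadjusted p under 0.05 or an FDR under 0.1 in limma (median L2FC 0.16). Gnai1 (78.6 RPKM) and Gnai3 (35.2) were the highest. Of the 9 genes that make or break down PIP2, the membrane lipid that keeps many TRP channels open, all were tested and none had an unadjusted p under 0.05 in limma (median L2FC -0.12). The highest were Pi4k2a (22.3 RPKM) and Pip5k1c (19.5).

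Among 20 partners and regulators of these channels, 18 were tested, and limma called 0 at FDR under 0.1 and 2 at unadjusted p under 0.05, both lower in Dbx1 (median L2FC of the list 0.01). The share lower in Dbx1 at this p was 2.48% over all genes tested. Slc9a3r1, the scaffold protein NHERF1, which binds the end of TRPC4 and TRPC5, measured 3.85, 0.207 and 12.7 RPKM in Dbx1 and 8.12, 32.1 and 27.3 in non-Dbx1 samples (L2FC -2.24, adjusted p = 0.912 in limma). Its groups overlapped. Dbx1 replicate 2, the sample with the most Trpc4, had the least Slc9a3r1, but non-Dbx1 replicate 3, with the least Trpc4, did not have the most. Ncs1, a neuronal Ca2+ sensor, measured 43.4, 26.9 and 37.7 and 44.4, 68.7 and 61.7 (L2FC -0.68, adjusted p = 0.912 in limma). The calmodulin gene Calm2 (620.1 RPKM) was the highest of this list.

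For ADP-ribose, the ligand of TRPM2, 4 of 6 genes that make or break it down were tested, with 0 at FDR under 0.1 in limma (median L2FC 0.00). At unadjusted p under 0.05 there was 1 in each direction, against 2.73% higher and 2.48% lower in Dbx1 over all genes tested. The 4 genes are too few to set apart from these shares. Parp1, which builds poly(ADP-ribose), measured 8.78, 4.99 and 5.87 RPKM in Dbx1 and 16.4, 12.003 and 11.6 in non-Dbx1 samples (L2FC -0.94, adjusted p = 0.912 in limma). Nudt9, an ADP-ribose hydrolase related to a domain of TRPM2, measured 25.9, 26.5 and 27.0 and 19.9, 10.7 and 18.9 (L2FC 0.70, adjusted p = 0.912 in limma). Parp2 (18.6) and Nudt9 (21.5) had the highest mean RPKM.

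Genes with the pattern most like Trpc4 over the 6 samples were sought among 13909 genes with a mean of at least 1 RPKM, by the root mean square difference of log2(RPKM + 1) centred on each gene's mean. The closest were Gm8855 (0.211), Hpcal4 (0.234) and Gm24276 (0.236). Gm8855 (2.29, 6.05 and 0.491 RPKM) and Gm24276 (2.29, 6.04 and 0 RPKM) had reads in Dbx1 samples only. Their levels in Dbx1 replicates 1 and 2 were nearly the same, so they may not count as separate likenesses. Hpcal4, a neuronal Ca2+-binding protein of the visinin family, measured 27.8, 66.2 and 11.3 RPKM in Dbx1 against 13.8, 8.61 and 5.57 in non-Dbx1 samples. Its level was well above that of Trpc4, and its groups overlapped. Closest to Trpc5 were Rcan2 (0.189), Arg2 (0.207) and Gm16596 (0.244). Rcan2, a calcineurin regulator, measured 113, 47.6 and 45.5 RPKM and 66.6, 71.0 and 161, so that it was highest in the same sample of each group as Trpc5. These likenesses rest on 6 samples and were not tested.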

How the data were processed

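RNA of 6 samples of 15 neurons was reverse transcribed, amplified and sequenced by the study. The authors deposited RPKM per gene name, made with TopHat2 on mm10, SAMtools and HTSeq, without strand, and with exon lengths of an Ensembl annotation whose release is not given in the sources used here. The deposited values carry no scaling between samples. Samples were grouped by their labels as 3 Dbx1 and 3 non-Dbx1, each from 1 mouse.

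Reads on genes per sample were recovered from the RPKM steps. The length behind RPKM equalled the sum of all GENCODE vM21 exon entries for 21707 of 27067 genes with reads (80.2%). For 5338 others the smallest length that gave whole reads (tolerance 0.001) was used, so their reads are minima, and 22 gave none. Trpc7, Trpm2 and Trpm3 are among the 5338. The floor is 3 reads in a single sample. Floors cover counting error only, since amplified cDNA reads are not independent molecules.

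The study tested counts. Here log2(RPKM + 1) was tested with limma 3.58.1 (R 4.3.3, eBayes with trend), two-sided, group only, over the 17614 genes that had reads in 3 or more samples, with Benjamini-Hochberg adjustment and a threshold of 0.1. Single genes were also compared by an exact permutation test, and neighbours in the order of levels by exact sign changes within samples. The fit was tested on simulated data. At FDR under 0.1 it called 91 of 100 genes with a simulated log2 change of 4, but only 37 of 100 with one of 2. It also called 13 genes without a change. Other values came from Python 3.11.15, numpy 2.4.6, pandas 2.3.3, scipy 1.17.1 and matplotlib 3.10.9, and TRP boxes were found with Biopython 1.88.

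The members and all gene lists were chosen with earlier results of these data known. Named genes are all members, other TRPC and TRPM genes, from each list the 2 genes with the highest mean RPKM and each with limma p under 0.05, and the 3 genes most like Trpc4 and Trpc5. Some genes that this rule takes, and 1 sequence, are not reported here. The markers named were chosen after their values were seen. Alternatives were a pseudocount of 0.1, looser and stricter filters, size factors, quantile normalization, no trend, a replicate block, each sample left out, voom on recovered reads (10 or more reads in 3 or more samples), and the log2 ratio of means. The merged exon length and the exclusion of the highest sample were added after seeing the data.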

Additional observations from a re-analysis of the deposited data

How the results depend on the processing

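No member reached an FDR of 0.1 in limma under any alternative that tested it, and the lowest was 0.678, for Trpc4 without Dbx1 replicate 3. The L2FC of Trpc4 stayed positive in each alternative that gave a value, from 1.22 without Dbx1 replicate 2 to 3.46 as the log2 ratio of mean RPKM. A floor of 1 RPKM in 3 or more samples left Trpc4, Trpc5, Trpc7 and Trpm4 untested. The sign of L2FC turned for 4 members. Trpc5 came to 0.038 without non-Dbx1 replicate 3, and ranged from -1.03 to 0.038 with a sample left out. Trpc7 came to 0.27 and 0.13 when Dbx1 replicate 1 or 3 was dropped and to 0.36 when non-Dbx1 replicate 3 was (range -0.80 to 0.36). Trpm4 came to -0.053 under quantile normalization and -0.26 as the log2 ratio of means. It was -0.24 when Dbx1 replicate 3 was dropped, -0.31 and -0.16 when non-Dbx1 replicate 2 or 3 was (range -0.31 to 0.53). Trpm7 came to -0.13 without non-Dbx1 replicate 1 (range -0.13 to 0.69). The cause was not tested.

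Over all genes the count lower in Dbx1 at FDR under 0.1 was 1, and it was 0 with a pseudocount of 0.1, with all genes that had reads, with the replicate block and with voom, 3 without the trend, and 0 to 1 with a sample left out. The count higher was 0, and 0 to 1 with a sample left out, the 1 being without non-Dbx1 replicate 2. Of the 8 neighbour pairs in the order of mean RPKM, 5 kept their order in the Dbx1 samples alone and 5 to 7 with a sample left out. The lowest number, 5, came when Dbx1 replicate 2 or non-Dbx1 replicate 3 was dropped.

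Deviations of same-numbered samples correlated at -0.107, 0.0248 and -0.0522, and those of differently numbered samples at -0.0824 to 0.133. Pairing by replicate number was thus not seen, but so few samples cannot exclude it. With the replicate block Trpc4 had an L2FC of 1.78 and an adjusted p of 0.980 in limma. Whether the samples of a group differ by animal or by the neurons drawn could not be told apart, as each animal gave 1 sample. Depth limits Trpc6 and, in some samples, Trpc7.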
